A study of Mus musculus with 4 samples.

Results

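The TRIM family was examined in activated mouse B cells of wild-type mice and of mice with Adar1, which encodes an editor of double-stranded RNA, conditionally knocked out in B cells (cKO). Members were the rows of the deposited gene table whose symbol is Trim, a number and at most 1 further letter, except Trim25. Of 55401 rows, 67 met this rule, and the 42 with at least 20 reads summed over the libraries are described here. The cells were splenic B cells of C57BL/6 mice, purified with anti-CD43 beads and kept for 36 h in culture, where anti-CD40 (1 µg/ml) and anti-IgM (10 µg/ml) activated them. There were 2 poly(A) RNA libraries labelled wild type and 2 labelled Adar1 cKO, and all 4 had the same stimulation. The Cre driver, the deleted part of the gene, the age of the mice and whether libraries came from separate mice were not given in the sources used here.

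TRIM proteins carry a RING finger, B-box and coiled-coil region, and most act as ubiquitin ligases. Many are known in antiviral defence: some bind incoming viral capsids, some place ubiquitin on the adaptors that lead from nucleic acid sensors to interferon, and several are themselves induced by interferon. Others are chromatin corepressors, cytoskeletal proteins or muscle ligases. In B cells the corepressor TRIM28 (KAP1) is known for silencing genes and retroelements with KRAB zinc finger proteins.

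A change is the log2 difference of cKO-labelled from wild-type libraries, positive where the former are higher, and is given ± SE (n = 2 libraries per genotype). CPM is the read count scaled to library size with TMM factors, and serves to compare libraries. FPKM, the deposited value that is also divided by exonic length, serves to compare genes. A gene was called where the quasi-likelihood test of edgeR gave a Benjamini-Hochberg adjusted p under 0.05 over all 14180 genes tested. Total counts per library lay between 17327480 and 19669651. Adar itself, the targeted gene, stood at 137 and 149.97 CPM in wild type and at 218 and 233 CPM in the other libraries. These values count reads over the whole gene. The deleted part is not given, so they cannot show whether the deletion took place. Those libraries are therefore called cKO-labelled throughout. Of 6 B-cell markers 5 were called lower there. The 7 dendritic cell markers summed to 60.1 and 59.1 CPM in wild type and to 114 and 119.8 CPM in cKO-labelled libraries, with 4 of 5 tested members called higher and Clec9a at 0.051 to 0.115 CPM. The summed natural killer cell markers stood at 1.68 and 1.53 CPM against 5.22 and 7.22, the erythroid ones at 0.871 and 1.47 against 3.83 and 4.01, and the neutrophil ones at 1.10 and 0.712 against 2.165 and 3.32. Macrophage markers (15.2 to 18.5 CPM) and T-cell markers (0.966 to 2.64 CPM) overlapped between genotypes, and the neutrophil gene Ly6g was at 0 counts. The part of these cells in any result below was not tested, and in bulk RNA fewer cells of a type and less RNA per cell cannot be told apart.

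Promoters are shown first, because the core of the interferon-stimulated response element recurs in some of the members that were higher. Trim5, which was not called, is printed beside its near copies. The core searched for is GAAA, any 2 bases and GAAA again, on either strand, and on the other strand it reads TTTC, 2 bases and TTTC. The windows are those of RefSeq on GRCm38.p6, from 250 bases before to 50 after each start site, and 31 of the 42 members matched the table. The core was found in 9 of these 31 genes (29.03%), against 1079 of 27025 genes (3.99%) in the whole table. Of 13 matched members that were called higher 7 held it (Trim12a, Trim12c, Trim21, Trim26, Trim30a, Trim30d and Trim34a), and of 18 matched members that were not called 2 held it (Trim2 and Trim5). Stretches before the start site are printed with up to 25 bases on each side of the core, and those reaching into the transcript with 10 bases on each side. All run 5′ to 3′ on the strand of the gene, with the core in capitals.
Trim30a: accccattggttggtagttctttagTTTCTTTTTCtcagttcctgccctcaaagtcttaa
Trim30d: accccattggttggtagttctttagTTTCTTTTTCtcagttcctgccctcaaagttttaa
Trim12c: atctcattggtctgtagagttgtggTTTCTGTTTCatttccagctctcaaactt
Trim5: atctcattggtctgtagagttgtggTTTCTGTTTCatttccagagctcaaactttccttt
Trim12a: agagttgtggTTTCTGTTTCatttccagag
Trim34a: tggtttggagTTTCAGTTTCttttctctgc
Trim21: cctctgagagGAAACTGAAAgtgaaatttg
Trim26: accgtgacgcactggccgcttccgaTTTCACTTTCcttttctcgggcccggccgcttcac

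These stretches lie at chr7:104465195-104465254 (minus strand) for Trim30a, chr7:104507856-104507915 (minus) for Trim30d, chr7:104353350-104353403 (minus) for Trim12c and chr7:104288121-104288180 (minus) for Trim5. Those of Trim12a, Trim34a and Trim21 are at chr7:104315466-104315495 (minus), chr7:104244457-104244486 (plus) and chr7:102565450-102565479 (minus), and that of Trim26 at chr17:36836961-36837020 (plus). The core began 36 bases before the start site in Trim30a and 41 before it in Trim30d, and 29 and 49 bases before it in Trim12c and Trim5. Over the 60 bases centred on the core, Trim30a and Trim30d differed at 1 base, Trim12c and Trim5 at 3, and Trim5 and Trim12a at 0. The counts of genes holding the core take these near copies as separate genes, so those shares are not of unrelated promoters. Trim21 and Trim26 each held a further match that overlaps the one shown, and a further RefSeq start site of Trim30a, inside the gene, also held the core. The STAT site core (TTC, any 3 bases and GAA), which reads alike on both strands, was found in 3 of 31 members (9.68%; Trim30c, Trim45 and Trim46) and in 9.55% of all genes. No member held both cores. A match is a description of these letters and not a measured binding site. For Trim30b the RefSeq window lies within the deposited gene and not at its edge. The windows that held the matches of Trim2, Trim45 and Trim46 also lie wholly within the deposited gene.

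Trim28 was the most abundant member by FPKM in all 4 libraries, at 113.2 and 112.27 in wild type against 98.28 and 106.59 in the cKO-labelled pair. In wild type the next were Trim35 (43.58 and 44.58 FPKM), Trim30a (33.66 and 35.29), Trim44 (30.68 and 31.56), Trim27 (27.1 and 26.73) and Trim8 (26.48 and 25.41). In the cKO-labelled libraries Trim30a came second, at 92.81 and 90.39 FPKM, close below Trim28, and Trim34a (43.93 and 44.13) and Trim12c (43.58 and 43.95) followed ahead of Trim35 (42 and 40.34). Trim34a, Trim12c and Trim35 lie too close together there for their order to be read. Of all reads on the 42 members, Trim28 held 20.2% and 19.7% in wild type against 14.1% and 15.2% in cKO-labelled libraries, and Trim30a 5.94% and 6.13% against 13.2% and 12.7%. Summed over members, the family stood at 2344 and 2369 CPM in wild type and 2896 and 2923 CPM in cKO-labelled libraries.

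**Figure D1:**
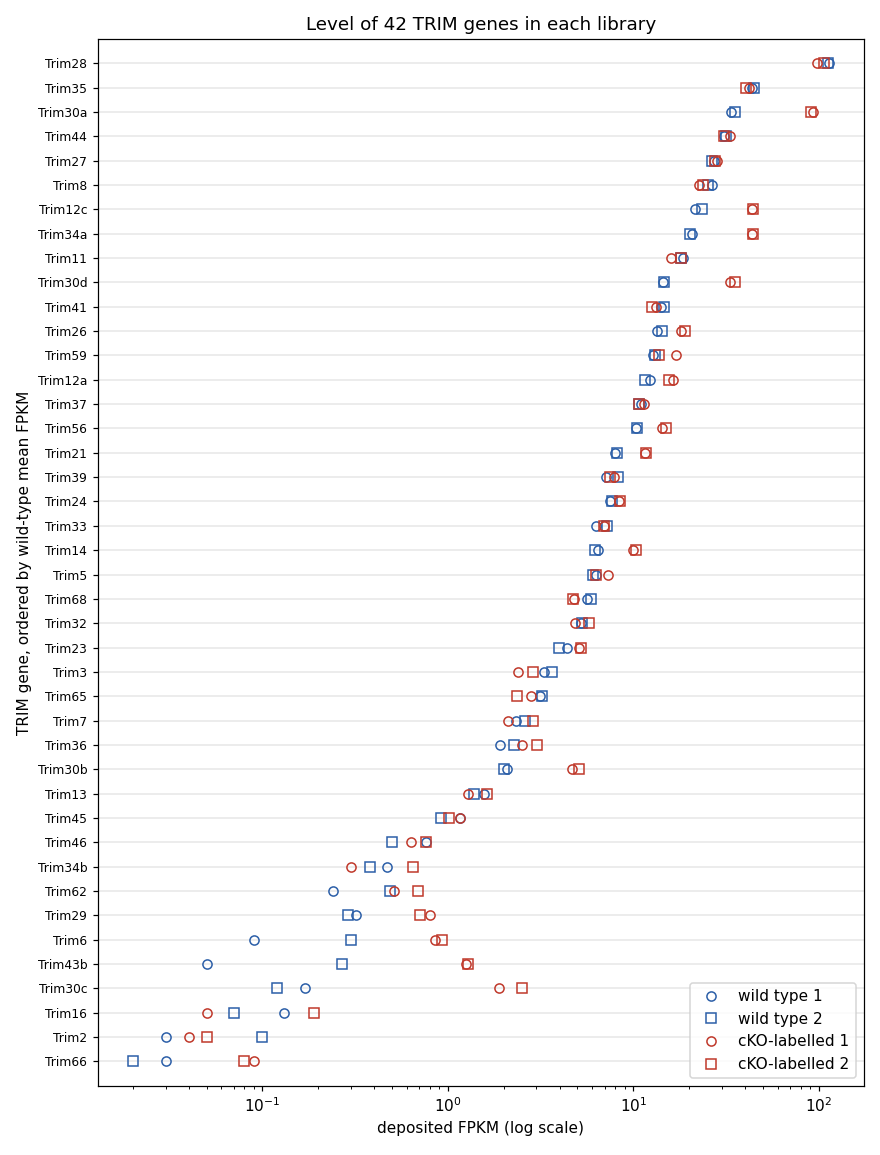
Deposited FPKM (log scale) of each of the 42 TRIM genes in each library, ordered by wild-type mean; blue marks wild type, red cKO-labelled, circles library 1 and squares library 2. Trim28 is at the top, with 98.28 to 113.2 FPKM. Among others, the red symbols of Trim30a, Trim12c, Trim34a, Trim30d and Trim30b stand apart to the right of the blue ones. In the lower part of the plot those of Trim30c, Trim43b, Trim6 and Trim29 do so too.

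Of the 42 members 16 were called higher in cKO-labelled libraries (38.1%) and 1 lower. Among all genes tested 21.7% were called, 12.2% higher and 9.54% lower. At least 2-fold higher were 8 of them, against 4.06% of all genes. The median change was 0.15 over the members and -0.01 over all genes. The values of the 2 genotypes did not overlap for 28 members (66.7%; 21 higher and 7 lower), against 57.9% of all genes. By position in the genome, 8 of the 10 members of the chromosome 7 cluster were called higher, and of the 32 members elsewhere 8 were higher and 1 was lower.

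The cluster spans 289.1 kb (GRCm38, chromosome 7, 104218793 to 104507849). It is the mouse counterpart of the human locus that holds TRIM5, TRIM6, TRIM22 and TRIM34, though no deposited symbol is Trim22. Some products of the human locus bind retroviral capsids or promote antiviral signalling. The 10 members of the mouse cluster summed to 442 and 447 CPM in wild type and to 948 and 944 CPM in cKO-labelled libraries. The other 32 summed to 1902 and 1922 against 1948 and 1979 CPM. The median change of the 10 was 1.165.

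Trim30a (ENSMUSG00000030921, chromosome 7, 104409025 to 104465193), which restrains NF-kB signalling by lowering TAB2 and TAB3, stood at 139 and 145 CPM in wild type and at 381 and 372 CPM in cKO-labelled libraries. The genotypes were far apart relative to the spread within each. It rose by 1.40 ± 0.059 (edgeR quasi-likelihood test, adjusted p = 1.09e-14). Its neighbour Trim30d (104470014 to 104507849) rose from 54.7 and 55.2 to 125 and 132 CPM, a change of 1.23 ± 0.064. Trim30b (104355382 to 104369884) rose from 15.8 and 15.1 to 34.98 and 38.4 CPM, a change of 1.25 ± 0.107. These 3 paralogs had changes from 1.23 to 1.40. Trim30a and Trim30d share a near-identical stretch around the core shown above, while the RefSeq window of Trim30b held no match to that core. A link between the core and these changes was not tested. Trim30c (104382065 to 104400837) was close to silent in wild type, with 5 and 4 counts, and had 58 and 75 counts in cKO-labelled libraries. Its count ratio was 15.4 (95% counting interval 7.86 to 34.4), and its fitted change of 3.90 ± 0.476 rests on few wild-type counts.

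Trim34a (104244457 to 104262234), a relative of the capsid-binding factor TRIM34, stood at 54.0 and 52.3 CPM in wild type and at 114 and 114 CPM in cKO-labelled libraries, a change of 1.10 ± 0.064. Its copy Trim34b (104329471 to 104336909) had only 15 and 14 counts against 10 and 21, and these overlapped. The Trim5-like genes are close relatives of the restriction factor TRIM5, which recognises retroviral capsids. Among them Trim12c (104338754 to 104353362) rose from 81.0 and 87.6 to 163 and 164 CPM, a change of 0.96 ± 0.062. Trim12a (104299894 to 104315466) rose from 71.9 and 67.0 to 94.7 and 89.9 CPM (0.41 ± 0.066). Trim5 (104263386 to 104288094), with 23.4 and 22.4 CPM in wild type and 26.9 and 23.2 CPM in cKO-labelled libraries, was not called, at 0.13 ± 0.111 (edgeR quasi-likelihood test, adjusted p = 0.463). Trim5 and Trim12a have the same 60 bases around the core and Trim12c differs from each at 3. The differences between their changes were not tested.

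Trim6 (104218793 to 104235152), which makes unanchored ubiquitin chains that activate the kinase IKK epsilon, had 8 and 29 counts in wild type against 75 and 79 in cKO-labelled libraries. The wild-type libraries differed from each other, so the size of its rise is uncertain: it was 2.12 ± 0.393 over all libraries, 1.55 without wild-type library 1 and 3.20 without wild-type library 2, and was called in each case.

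**Figure D2:**
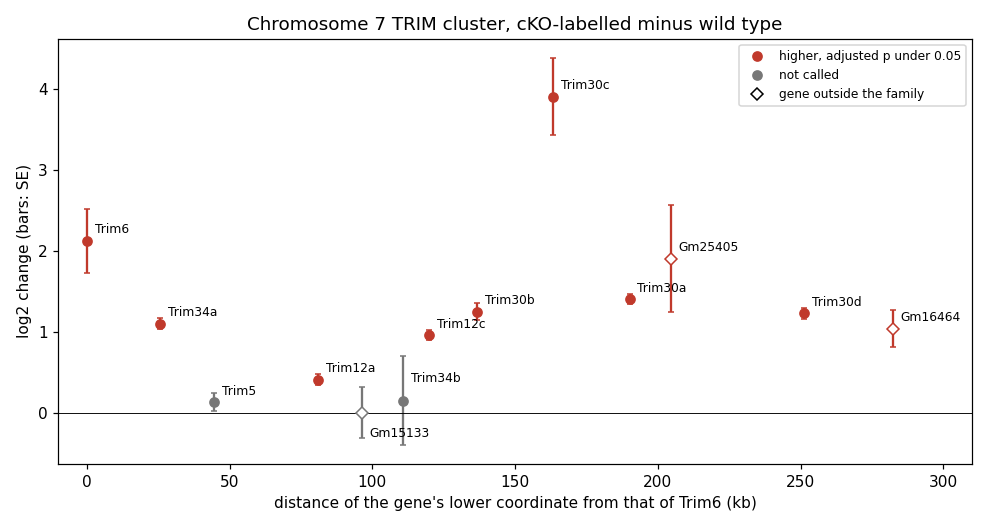
Log2 change (cKO-labelled minus wild type, bars SE) of the genes tested in the chromosome 7 cluster against distance from the lower coordinate of Trim6 in kb; filled circles are TRIM genes, open diamonds other genes, red called higher, grey not called. Called and uncalled genes are interspersed: Trim5 (0.13) and Trim34b (0.15) lie between Trim34a (1.10) and Trim12c (0.96).

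Other genes inside the interval were few. Of 8, 4 had no count and 3 could be tested. Gm16464, which lies inside Trim30d, was called higher at 1.04 ± 0.227. Gm25405, inside Trim30a on the opposite strand, was called higher at 1.904 ± 0.663 on 42 counts in all. Neither Gm16464 nor Gm25405 overlaps exonic bases of the TRIM gene around it. Intronic reads of Trim30d and Trim30a that fall there cannot be told apart from reads of Gm16464 and Gm25405. Gm15133, whose span overlaps that of Trim12a on the opposite strand, was at 0.00 ± 0.313. Within 200 kb on either side of the interval lie 33 further genes, many of them olfactory receptors, and none had enough counts to be tested.

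Near-identical copies and overlapping genes limit how reads are assigned in this cluster. Of the 50-base words in its longest transcript, Trim34a shared 61.94% with transcripts of other genes, Trim34b 59%, Trim5 38.44% and Trim12c 33.35%. The share was 8.29% in Trim30d, 6.53% in Trim30a, 4.59% in Trim12a, 1.11% in Trim30b, 0.66% in Trim30c and 0% in Trim6. Trim34a shared 41.28% of its words with Trim34b. It also shared words with Gm47248, which overlaps 23.5% of its exonic bases on the opposite strand and had 0 counts in every library. How the counting treated reads that match several genes is not given in the sources used here, so the split between Trim34a and Trim34b, and between Trim5 and Trim12c, is uncertain. With the counts of copies summed into 1 feature, the Trim30a to Trim30d set changed by 1.36 ± 0.058, the Trim34a and Trim34b pair by 1.09 ± 0.064 and the Trim5, Trim12a and Trim12c set by 0.67 ± 0.058. Each sum was called (edgeR quasi-likelihood test, adjusted p = 1.59e-14, 5.51e-12 and 5.39e-09).

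Of 16 TRIM genes of innate signalling 6 were called higher (37.5%), against 12.2% of all genes tested. Their changes ran from 0.25 to 0.68, and 10 genes were not called. The median of the group was 0.04. Trim14 (ENSMUSG00000039853, chromosome 4, 46493781 to 46536141), an adaptor without a RING finger that works with MAVS, rose from 28.3 and 26.9 to 43.4 and 44.98 CPM, a change of 0.68 ± 0.089 (edgeR quasi-likelihood test, adjusted p = 3.44e-06). Nans overlaps 31.26% of its exonic bases on the opposite strand. Since the library kit did not mark strand, reads of Trim14 and Nans cannot be told apart there, and Nans itself stood at 117 and 112 against 113 and 123 CPM. Trim21 (chromosome 7, 102557921 to 102565486), the cytosolic receptor that marks antibody-coated particles for destruction, rose from 29.8 and 30.4 to 42.9 and 43.3 CPM, a change of 0.52 ± 0.087. It lies on chromosome 7 outside the cluster. Trim56 (chromosome 5, 137105644 to 137116209), a ligase that promotes STING signalling, rose from 96.5 and 97.1 to 132 and 140.2 CPM, a change of 0.49 ± 0.061. Trim26 (chromosome 17, 36837134 to 36859398), which acts on IRF3, rose from 93.0 and 98.1 to 124 and 130.6 CPM, a change of 0.41 ± 0.062.

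The calls of Trim23 and Trim59 were near the threshold. Trim23 (chromosome 13, 104178797 to 104203372), which joins a RING ligase to an ARF-type GTPase domain, stood at 25.3 and 22.8 CPM in wild type and 29.3 and 29.97 CPM in cKO-labelled libraries. Its change was 0.30 ± 0.103 (edgeR quasi-likelihood test, adjusted p = 0.0372). That p rose to 0.278 without wild-type library 2, to 0.073 without cKO-labelled library 1 and to 0.109 without cKO-labelled library 2. Trim59 (chromosome 3, 69035288 to 69044755), a membrane-anchored member, stood at 42.9 and 43.9 CPM in wild type and at 57.0 and 46.2 CPM in cKO-labelled libraries. Library 1 carried most of that difference: the change was 0.25 ± 0.089 over all libraries and 0.09 without cKO-labelled library 1, where the adjusted p of the edgeR test went from 0.0459 to 0.613. It was also not called without wild-type library 1 (0.129) or wild-type library 2 (0.0835).

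The 4 members of this group with the highest FPKM in either genotype, Trim35, Trim44, Trim27 and Trim8, were not called. Trim35, a ligase of innate signalling and cell growth, stood at 202 and 206 CPM in wild type and 194 and 186 CPM in cKO-labelled libraries. The values were lower in both cKO-labelled libraries, but the change of -0.10 ± 0.058 did not pass the test. Trim44, which lacks a RING finger and stabilises its partners, overlapped between genotypes (174 and 178 against 186 and 173 CPM). Trim27, a ligase first found as a fusion partner of RET, stood at 149.9 and 147 against 155 and 151 CPM. Trim8, a ligase of the SOCS1 and TAK1 pathways, stood at 98.8 and 94.3 against 84.0 and 87.8 CPM, a change of -0.17 ± 0.063 (edgeR quasi-likelihood test, adjusted p = 0.0626). With each library's GC trend removed its change was -0.015. Trim41 stood at 49.6 and 51.6 against 46.4 and 44.1 CPM, and Rack1, which overlaps its exons on the opposite strand over 31 bases, held 2300 to 2990 CPM.

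Trim65, a ligase of the double-stranded RNA sensor MDA5, stood at 18.6 and 18.8 CPM in wild type and 16.4 and 13.8 CPM in cKO-labelled libraries, a change of -0.31 ± 0.130 that was not called. Without cKO-labelled library 1 it was called, at -0.44 (edgeR quasi-likelihood test, adjusted p = 0.039). Trim68 stood at 19.6 and 20.6 against 16.7 and 16.5 CPM. Trim32, known from a limb-girdle muscular dystrophy, stood at 17.004 and 16.985 against 15.7 and 18.6 CPM and overlapped. The remaining members were low in every library: Trim13, a ligase of the endoplasmic reticulum, lay between 2.11 and 2.69 CPM and Trim62 between 1.22 and 3.44 CPM.

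**Figure D3:**
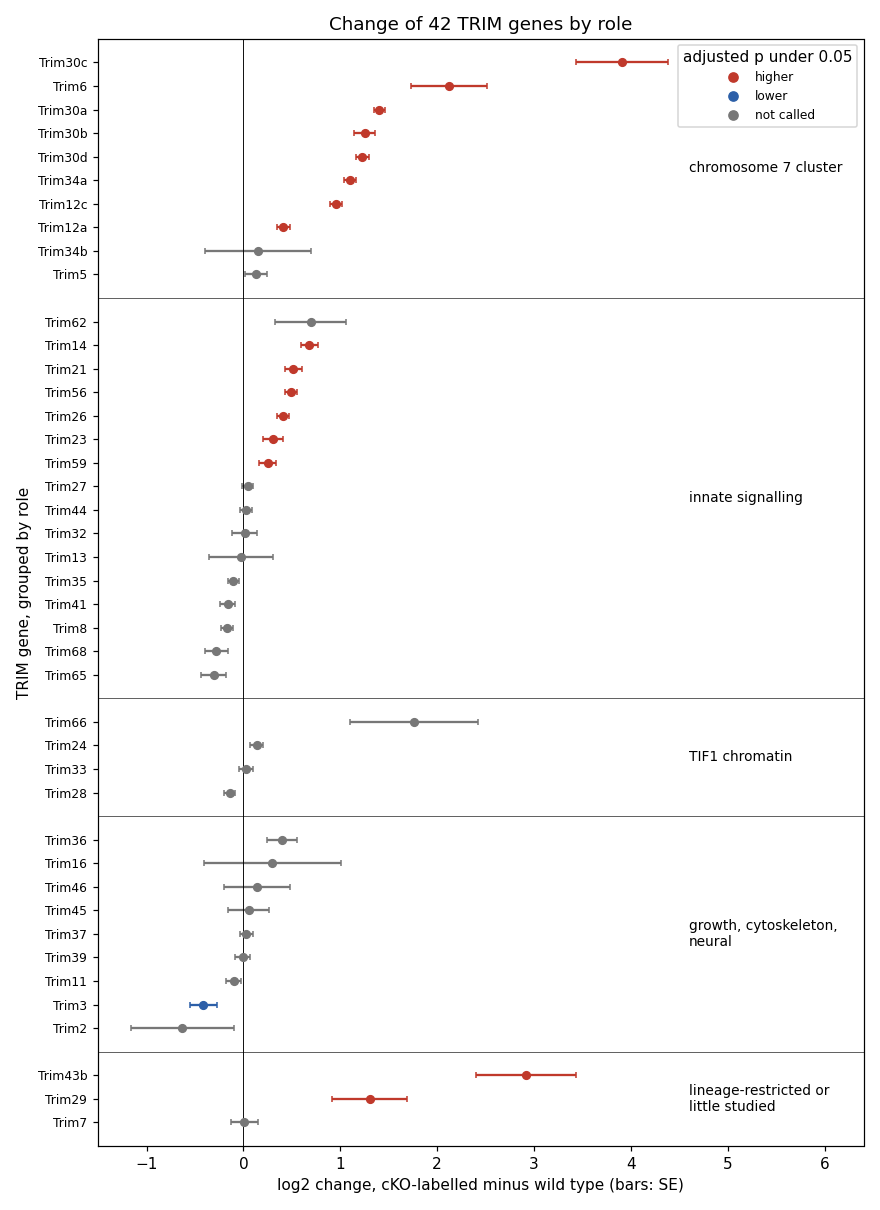
Log2 change (cKO-labelled minus wild type, bars SE) of all 42 TRIM genes, grouped by role, with called genes in red (higher) or blue (lower) and others in grey. Changes of the chromosome 7 cluster run from 0.13 to 3.90, those of the innate signalling group from -0.31 to 0.69, and Trim3 is the 1 blue point.

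The TIF1 chromatin regulators join the tripartite motif to a PHD finger and bromodomain. Trim28, the corepressor, had 473 and 467 CPM in wild type and 408 and 443 CPM in cKO-labelled libraries. Both cKO-labelled values were lower, but the change of -0.14 ± 0.059 was not called (edgeR quasi-likelihood test, adjusted p = 0.0883) and was 0.007 with each library's GC trend removed. It was called without cKO-labelled library 2, at -0.20. Trim24, a cofactor of nuclear receptors, stood at 64.5 and 65.7 against 71.4 and 71.8 CPM, a change of 0.14 ± 0.066 that was not called. Trim33, which acts with SMAD proteins, overlapped (61.8 and 71.0 against 67.8 and 67.8 CPM). Trim66, mainly a testis gene, had 5 and 4 counts in wild type against 16 and 14 in cKO-labelled libraries and was not called (edgeR quasi-likelihood test, adjusted p = 0.0597). At an unadjusted p under 0.05 these 4 genes gave 2 higher and 1 lower, where all 14180 genes tested gave 2426 higher and 2161 lower. DESeq2 called none of Trim24, Trim28 and Trim33, and gave Trim66 no adjusted p.

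Of 9 members of growth, cytoskeletal and neural function 1 was called lower and 8 were not called, with a median of 0.03. Of all genes tested 9.54% were called lower. Trim3 (chromosome 7, 105604463 to 105633571), a ligase with an NHL domain known from endosomal trafficking and neurons, stood at 15.1 and 16.7 CPM in wild type and at 10.9 and 13.1 CPM in cKO-labelled libraries. It fell by 0.41 ± 0.144 on the log2 scale (edgeR quasi-likelihood test, adjusted p = 0.0433). The adjusted p was 0.226 without wild-type library 2 and 0.25 without cKO-labelled library 1. Trim37, a regulator of centrioles, stood at 80.0 and 77.2 against 82.8 and 77.8 CPM, and overlapped. So did Trim11 (66.3 and 64.6 against 57.4 and 64.6 CPM) and Trim39, an inhibitor of the anaphase-promoting complex (51.8 and 59.5 against 57.1 and 54.0 CPM). Trim36, a microtubule-associated member, was higher in both cKO-labelled libraries (9.40 and 11.1 against 12.3 and 14.8 CPM) but was not called, at 0.40 ± 0.158; without cKO-labelled library 1 it was called, at 0.53. Trim45 overlapped (7.02 and 5.54 against 6.94 and 6.07 CPM). Trim2, Trim16 and Trim46 were below 3 CPM in every library. In Trim2, wild-type library 2 held 40 counts and the other libraries 11 to 17, and without it the change turned from -0.63 to 0.44, called in neither case.

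Among lineage-restricted or little-studied members, Trim29 and Trim43b were called higher from low levels. Trim29 (chromosome 9, 43310848 to 43336115), a member without a RING finger known from epithelia, had 19 and 20 counts in wild type against 50 and 43 in cKO-labelled libraries, which gave a count ratio of 2.48 (95% counting interval 1.69 to 3.7). The adjusted p of the edgeR test, 0.017, went to 0.0581 without wild-type library 1, 0.0895 without wild-type library 2 and 0.09 without cKO-labelled library 1. Trim43b (chromosome 9, 89084624 to 89092835), of a family known from the early embryo, had 2 and 12 counts in wild type against 51 and 51 in cKO-labelled libraries, which gave a count ratio of 7.58 (95% counting interval 4.32 to 14.4). Its change of 2.91 ± 0.517 was 2.22 without wild-type library 1 and 4.54 without wild-type library 2. Its transcript shared 48.76% of its 50-base words with other genes, mostly Trim43a, which had 0 counts, and Trim43c, which had 5 and 1 against 9 and 4. Trim7, a partner of glycogenin, overlapped (17.8 and 19.7 against 16.0 and 21.8 CPM).

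The threshold of 20 counts left out 25 symbols. Of these, 12 had no count in any library, including the muscle ligases Trim54, Trim55 and Trim63, and 13 had 1 to 19 counts. The lowest members inside were Trim16 (35 counts) and Trim66 (39), and the highest outside were Trim43c (19), Trim17 (18), Trim15 (17) and Trim47 (17). Trim38, a feedback regulator of innate signalling, had 7 and 3 counts in wild type against 0 and 3 in cKO-labelled libraries, too few to test.

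Of 10 genes of tripartite or related structure under other names, 7 were tested and 4 were called higher, with the other 3 not called and a median of 0.76. Of all genes tested 12.2% were called higher. Pml, the organiser of nuclear bodies, was the most abundant and rose from 377 and 381 to 491 and 518 CPM, a change of 0.41 ± 0.057. Mid1, a microtubule-bound ligase, rose from 0.871 and 1.17 to 5.94 and 5.39 CPM, a change of 2.46 ± 0.319. Mefv, which encodes the inflammasome protein pyrin, had 2 and 2 counts in wild type against 11 and 15 in cKO-labelled libraries. Its change of 2.68 ± 0.799 rests on these few counts. Fsd1l rose from 1.62 and 1.17 to 3.78 and 4.24 CPM.

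Of 18 partners in ubiquitin transfer and signalling, 3 were called higher and 1 lower, with a median of 0.06. Of all genes tested 12.2% were called higher and 9.54% lower. The counts of this list and of the TRIM28 partners below are small and were not tested against these shares. Traf6, a ubiquitin ligase of Toll-like and CD40 signalling, rose from 62.4 and 64.0 to 78.8 and 81.8 CPM (0.34 ± 0.066). The kinase gene Ikbke changed by 0.25 ± 0.072 and Tab2, a target of TRIM30, by 0.23 ± 0.063. Uba1, the main ubiquitin-activating enzyme, fell from 559 and 556 to 474 and 495 CPM, and was not called without cKO-labelled library 1. The conjugating enzyme gene Ube2n, which builds signalling chains, stood at 57.5 and 64.8 against 68.7 and 65.6 CPM. Of 12 partners of TRIM28 in silencing, Morc3 was called higher (0.25 ± 0.061), Chd3, a remodeller of the NuRD complex, was called lower (-0.255 ± 0.067), and 10 were not called, with a median of 0.03. Neither call held without wild-type library 2, and that of Chd3 was also lost without cKO-labelled library 1. The methyltransferase gene Setdb1, for example, stood at 117 and 127 against 116 and 119 CPM.

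**Figure D4:**
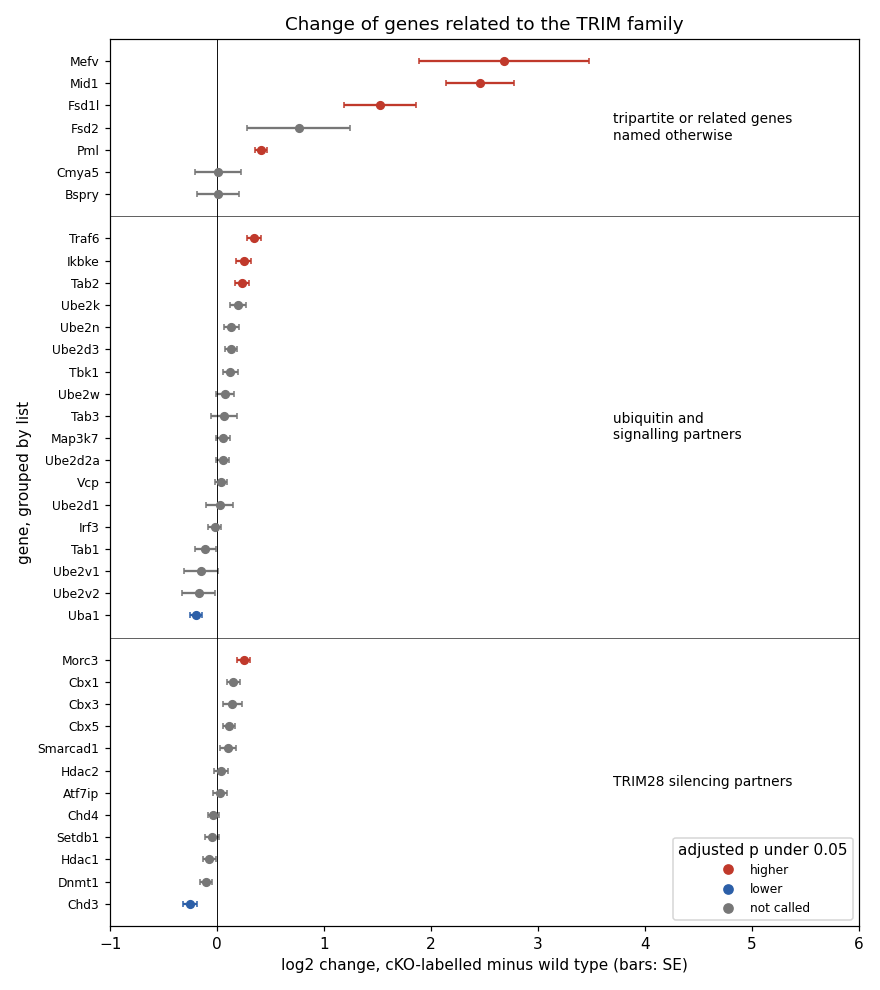
Log2 change (cKO-labelled minus wild type, bars SE) of the tested genes of 3 lists of related genes, red called higher, blue called lower, grey not called. The upper list holds changes up to 2.68 (Mefv), while the changes of both partner lists lie between -0.255 and 0.344.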

How the data were processed

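Per the labels' protocols, poly(A) RNA was selected before library preparation with the NEBNext Ultra RNA kit, a kit that leaves strand unmarked. The submitters' processing notes name cutadapt 1.9.1 among the tools, besides HISAT2 2.0.1 and, for HTSeq, 0.6.1, on GRCm38. No settings were given in the sources used here. The authors deposited read counts per gene and FPKM values; FPKM recomputed from counts, exonic length and library totals lay within 0.005 of all 221604 deposited values.

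The count model was that of edgeR 4.0.16 under R 4.3.3 (filterByExpr, minimum count 10 and minimum total 15; TMM; quasi-likelihood test of genotype on all 4 libraries), and the fit was tested on simulated data. All 42 members passed the filter. SE is the size of the change over the root of its F statistic. Count ratios have 95% exact conditional intervals, which cover counting error only. p-values measure the spread between these libraries, which may be technical; libraries of 1 genotype varied beyond counting noise (chi-square 8.49 and 4.37 per gene, 2.41 and 3.49 per member). Transcript words, exon overlaps and GC content come from GENCODE M21, on GRCm38.

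The members, role groups and lists were chosen with earlier results of these data known. Members called, or with a mean of at least 5 CPM, were named with their values in each library; called genes of related lists were named. DESeq2 1.42.0 and the other alternatives are given below.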

Additional observations from a re-analysis of the deposited data

How the results depend on the processing

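Of the 16 TRIM genes called higher, 13 were called in all 10 alternative fits; Trim23, Trim29 and Trim59 were lost in some, and no called member changed sign. DESeq2's Wald test gave 40 of 42 members, all but Trim16 and Trim66, an adjusted p. It called 13 members higher and 0 lower, and 1118 genes higher and 740 lower in the whole table. Of the ubiquitin and signalling partners it called 1 higher, and of the tripartite genes under other names 3. Without the filter on low counts 15 members were higher, and with DESeq2's size factors 16. Those settings gave 5 and 4 tripartite genes under other names higher. With each library's GC trend removed 14 members were higher and 0 lower, and of the TRIM28 partners 0 were lower; the replicate block with the GC trend removed gave the same counts of 14, 0 and 0. Trim23, Trim59 and Trim3 were not called there. With the GC trend removed Trim28 went from -0.143 to 0.007 and Trim8 from -0.167 to -0.015. The replicate numbers were not shown to pair the libraries (correlation of same-numbered deviations -0.029, 2 pairs); with the replicate block 16 members were higher and 2 lower, Trim8 being the added one. Leaving out 1 library in turn gave 13 to 15 members higher and 0 to 2 lower, 2 to 3 ubiquitin and signalling partners higher and 0 to 1 lower, and 0 to 2 TRIM28 partners higher and 0 to 1 lower. A threshold of 10 or 50 summed counts gave 47 or 40 members. Of the 10 members highest by FPKM, 8 were among the 10 highest by CPM. Trim2, Trim16 and Trim34b rest on 82, 35 and 60 counts in all, and their changes have wide errors (SE 0.527 for Trim2 and 0.544 for Trim34b). The causes of these shifts were not tested.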
